A study of Homo sapiens with 3 samples.

Results

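The genes described here encode nucleoporins, the proteins that build the nuclear pore, and the importins and exportins that carry cargo through it. They were taken as the array probe sets whose platform annotation gave 1 gene symbol beginning with NUP and a digit, KPNA, KPNB, XPO, IPO, or TNPO and a digit, or equal to TPR, RANBP2, NDC1, SEH1L, AAAS or RAE1. This gave 160 of 54675 probe sets and 57 of 19775 genes. Total RNA came from NCI-H1650, an established human lung cancer line, and was hybridised to Affymetrix arrays. The treated cells had received 40 μM colossolactone H, a triterpenoid of the fungus Ganoderma colossum, for 12 h on 1 array and for 24 h on another. The control array held H1650 cells of the same line, and the labels gave neither a vehicle nor a time of collection for it. Cells of every array were grown in RPMI-1640 with calf serum, penicillin, streptomycin, amphotericin B, glutamine and non-essential amino acids. Each group had 1 array, so no difference below has an error or a p-value, and the number of arrays limits the precision.

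The nuclear pore is a ring-shaped channel through the nuclear envelope. An outer ring (the Y complex) and an inner ring form its scaffold, membrane proteins anchor it, disordered proteins fill its channel, and filaments and a basket extend from its cytoplasmic and nuclear faces. Importins bind cargo in the cytoplasm and release it when they meet Ran bound to GTP in the nucleus, while exportins bind cargo together with that form of Ran and release it outside. The pore is taken apart and rebuilt in mitosis in human cells, and several of its parts also act at kinetochores and the spindle.

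A gene was given the values of its brightest probe set, and any signal below 61.4, the median over the arrays, was raised to this floor. On that basis 52 of the 57 genes were measured, meaning above the floor on at least 1 array, and all 52 lay above it on every array. IPO11, IPO9-AS1, NUP133-DT, NUP210L and NUP210P1 stayed at the floor, as read from probe sets annotated to them alone. For IPO11 there were also 2 probe sets annotated jointly to the readthrough transcript IPO11-LRRC70. One of them had a signal of 1126 at 12 h and 1041 at 24 h, against 1004 in the control. The other had 990.3 at 12 h and 918.8 at 24 h, against 1039 in the control, so the pair lay on opposite sides of the control. By role, the 57 genes were 27 nucleoporins of the pore, 23 importins and exportins, and 7 other symbols that the selection also takes (antisense, divergent or pseudogene transcripts and paralogues). Unless stated otherwise, a difference is the log2 ratio of the treated to the control signal on the brightest probe set. Because signals of different probe sets are not on a common scale, levels are compared between arrays and not between genes.

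With colossolactone H most scaffold genes and both membrane genes of the selection had lower signal on their brightest probe sets. So did NUP50 and NUP153 of the basket and the importins KPNB1, IPO5 and IPO7. The largest of these differences was 1.59-fold (NUP210 at 24 h). Most exportins and most genes of the cytoplasmic face stayed close to the control, and the transfer RNA exportin XPOT was higher. At 24 h, 38 of 52 measured genes (73.1%) were lower than the control by any amount, against 49.9% of 12351 measured genes on the array. At 12 h, 30 of 52 (57.7%) were lower, against 48.4%. The median difference was -0.13 at 24 h and -0.03 at 12 h, while over all measured genes it was 0.00 at both times. Read from the brightest probe sets, the members' median was closer to the control at 12 h than at 24 h. With the median over a gene's probe sets the members' median was -0.05 at 12 h. No setting of the processing gave a members' median above -0.08 at 24 h. The count of lower genes with the median over a gene's probe sets was 34 of 52 at 12 h and 33 at 24 h. Both comparisons share the control array.

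On the brightest probe sets the differences were mostly below 1.5-fold. At 1.5-fold or more, none of the 52 genes differed from the control at 12 h, against 6.52% of all measured genes, and 1 did at 24 h, against 9.01%. That gene was NUP210. No member gene differed by 2-fold on its brightest probe set, against 0.883% of all measured genes at 12 h and 1.23% at 24 h. Over all 137 measured probe sets of the members, 8 (5.84%) passed 1.5-fold at 12 h, against 7.27% of such probe sets on the array, and 18 (13.1%) did at 24 h, against 11.1%. Past 2-fold were 1 probe set at 12 h (0.73%, against 0.945%), of IPO9 at -1.02, and 3 at 24 h (2.19%, against 1.67%), of NUP58 at 1.26, TNPO1 at 1.07 and IPO9 at -1.02. All 3 were dim, so the largest differences lay outside the values taken for the genes. At 1.25-fold or more, a threshold chosen after the values were seen, 8 of 52 (15.4%) were lower at 12 h against a background of 12.5%, and 3 (5.77%) were higher against 12.5%. At 24 h, 12 of 52 (23.1%) were lower against 16.1%, and 1 (1.92%) was higher against 13.8%. Past this threshold more members were thus lower than higher at each time. At 12 h their share lower, 15.4%, was near the 12.5% of all measured genes, and their share higher was below it. By any amount 22 of 52 were higher at 12 h and 14 at 24 h. The nearest genes below the 1.5-fold threshold were NUP50-DT and IPO5, with largest differences of -0.48 each. Among genes of mean signal 1000 or more, 30 of 39 members were lower at 24 h (76.9%), against 49.0% of 5569 such genes. For 12 h the figures were 24 of 39 (61.5%) against 47.8%.

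**Figure D1:**
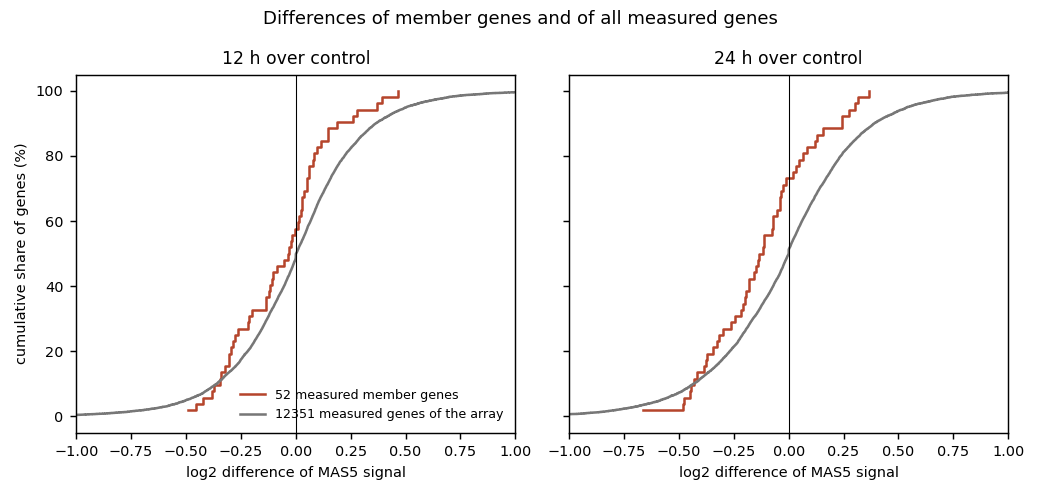
Cumulative share of genes (vertical axis, percent) by log2 difference from the control (horizontal axis) for the 52 measured genes of the nuclear pore and its transport receptors (red) and all 12351 measured genes (grey), at 12 h (left) and 24 h (right). The red curve lies left of the grey one over most of its range at 24 h, with 73.1% of members below 0 against 49.9% of all genes.

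In the plot of differences by role, the genes of the rings, the membrane and the basket lie mainly on the lower side, and those of the cytoplasmic face lie around the control.

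**Figure D2:**
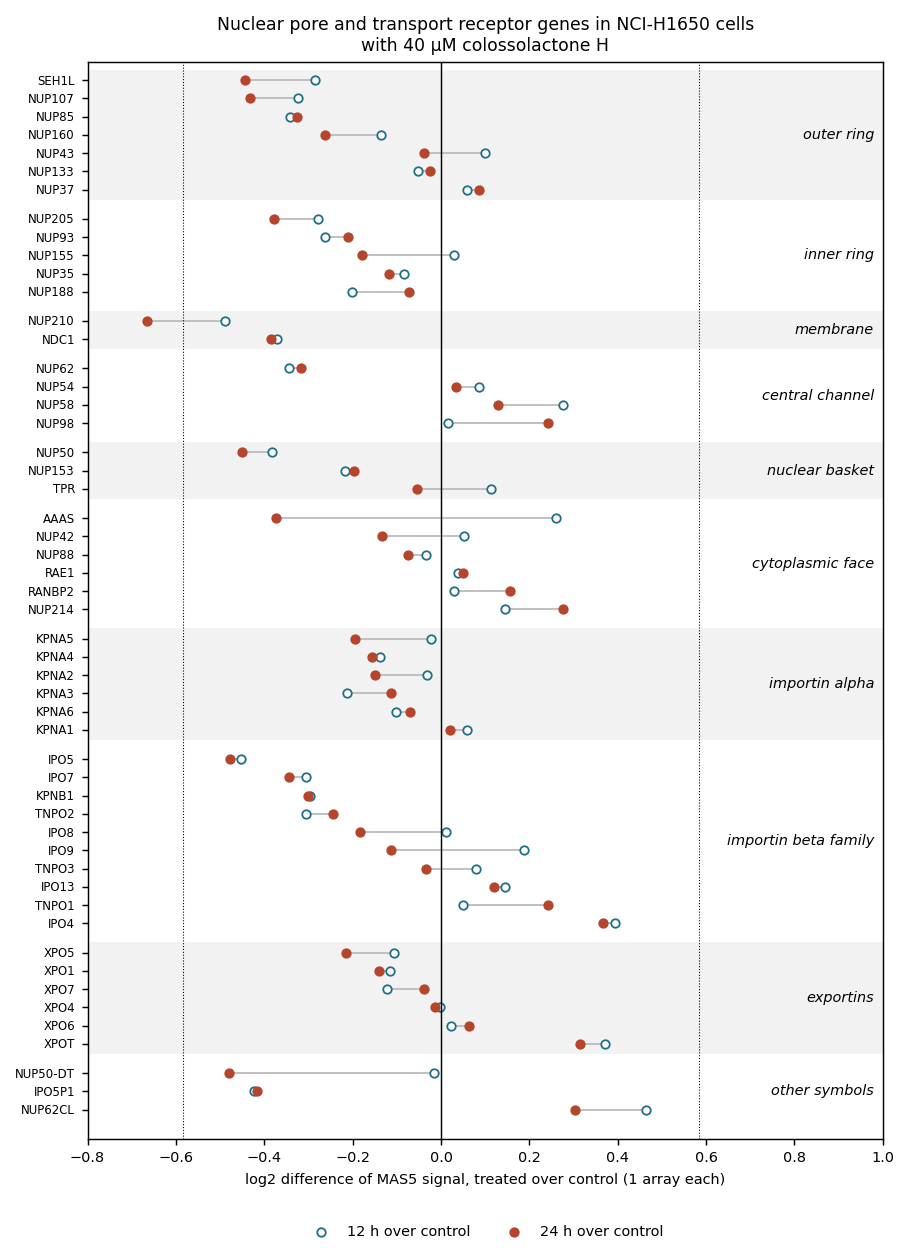
Log2 difference of signal from the control (horizontal axis) for each of the 52 measured genes (rows), grouped by role, at 12 h (open circles) and 24 h (filled circles), 1 array per group. Dotted lines mark 1.5-fold, which only NUP210 passes, at 24 h.

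Promoter sequences are shown for 3 nucleoporins chosen for a shared motif and a lower signal on their brightest probe sets. Of these, NUP62 was lower on that probe set alone. Sequences are also shown for NUP210, the member furthest below the control, and for XPOT, the exportin furthest above it. They are RefSeq sequences of GRCh38.p14, the 250 bases before the first listed start of each gene, written 5′ to 3′ on its strand, and capitals mark matches to the motifs named after them.
NUP107 (chr12:68686728-68686977, + strand): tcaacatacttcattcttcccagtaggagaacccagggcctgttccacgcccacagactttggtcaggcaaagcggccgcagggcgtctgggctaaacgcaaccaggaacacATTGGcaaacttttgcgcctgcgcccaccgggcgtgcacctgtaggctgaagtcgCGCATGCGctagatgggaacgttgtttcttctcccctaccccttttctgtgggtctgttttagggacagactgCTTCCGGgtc
NUP50 (chr22:45163675-45163924, + strand): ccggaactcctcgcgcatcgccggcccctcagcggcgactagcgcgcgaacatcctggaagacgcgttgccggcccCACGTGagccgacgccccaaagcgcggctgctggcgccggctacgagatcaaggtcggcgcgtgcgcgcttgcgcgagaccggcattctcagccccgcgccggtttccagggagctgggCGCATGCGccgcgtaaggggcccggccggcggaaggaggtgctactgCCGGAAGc
NUP62 (chr19:49929505-49929754, - strand): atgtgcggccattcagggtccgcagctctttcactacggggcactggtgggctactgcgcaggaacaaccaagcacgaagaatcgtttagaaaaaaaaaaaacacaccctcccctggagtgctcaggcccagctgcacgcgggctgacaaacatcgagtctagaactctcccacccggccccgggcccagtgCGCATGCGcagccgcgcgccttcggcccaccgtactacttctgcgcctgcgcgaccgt
NUP210 (chr3:13420323-13420572, - strand): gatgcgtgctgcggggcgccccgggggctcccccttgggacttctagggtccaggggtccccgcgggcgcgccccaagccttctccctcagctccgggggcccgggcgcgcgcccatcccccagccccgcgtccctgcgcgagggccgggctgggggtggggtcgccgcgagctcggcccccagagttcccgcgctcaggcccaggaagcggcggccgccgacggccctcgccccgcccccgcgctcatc
XPOT (chr12:64404142-64404391, + strand): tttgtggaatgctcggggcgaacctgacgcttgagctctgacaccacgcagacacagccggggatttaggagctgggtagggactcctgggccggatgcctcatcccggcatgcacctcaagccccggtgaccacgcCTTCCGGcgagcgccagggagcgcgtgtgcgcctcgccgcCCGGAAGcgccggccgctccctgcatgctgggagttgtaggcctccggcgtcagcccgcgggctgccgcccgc

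The search covered both strands and kept overlapping matches, and its motifs were chosen with the expression values known. CGCATGCG, the core of the site of nuclear respiratory factor 1, begins at position -83 in NUP107, -55 in NUP50 and -58 in NUP62, counted back from the start. It was found in 5 of 62 windows of 50 member genes (8.06%) and in 1.73% of all 35116 windows. The other windows with it were those of NUP50-DT and of IPO11, whose own probe set stayed at the floor. The NUP50 and NUP50-DT windows overlap and hold the same site. CCGGAAG, a site of ETS factors, was found in 22.6% of member windows and 8.52% of all windows, and the XPOT window holds 2 matches. CCAAT was found in 43.5% of member windows and 32.0% of all windows. The E-box CACGTG was found in 11.3% and 6.34%, and the cell cycle homology region TTTGAA in 17.7% and 13.3%. The E2F forms (TTTCCCGC or TTTGGCGC or TTTCGCGC or TTTGCCGC) were found in 1.61% and 2.79%, and the ATF4 composite site TGATGNAA in 1.61% and 3.14%. The NUP210 window holds none of these letters. A match is a description of the letters and no evidence of binding. IPO5P1, KPNA4, KPNA5, KPNB1, NUP210P1, NUP43 and XPO7 were not matched.

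The outer ring was led by SEH1L, NUP107 and NUP85. NUP107, a core subunit of the Y complex whose promoter is printed above, had a signal of 3166 at 12 h and 2937 at 24 h, against 3963 in the control. Both treated arrays were below the control, with differences of -0.32 and -0.43. NUP85, another subunit of the complex, had 2208 at 12 h and 2233 at 24 h, against 2799 in the control, or -0.34 and -0.33. SEH1L, which also belongs to the GATOR complex upstream of mTORC1, had 3738 and 3348 at 12 h and 24 h, against 4557 in the control, or -0.29 and -0.44. Its dimmer probe set gave 0.21 at 12 h and -0.15 at 24 h, so it did not share the 12 h direction. NUP160 was at -0.14 and -0.26. The remaining 3 subunits in the selection were near the control at 24 h, with NUP133 at -0.03, NUP43 at -0.04 and NUP37 at 0.08. However, dim second probe sets of NUP43 and NUP37 stood at -0.74 and -0.68. Of the 7 subunits in the selection 5 were lower at 12 h, with a median of -0.14. At 24 h 6 were lower, with a median of -0.26. For these and the later roles, the share lower among all measured genes was 48.4% at 12 h and 49.9% at 24 h. Of 4 measured pore components outside the selection, given below, 2 were lower at 24 h, while SEC13 was higher at both times (0.30 and 0.34).

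In the inner ring, 4 of 5 genes were lower at 12 h, with a median of -0.20, and all 5 were lower at 24 h, with a median of -0.18. NUP205, a large scaffold protein, had a signal of 1924 at 12 h and 1796 at 24 h, against 2334 in the control, which is -0.28 and -0.38. NUP93, which links the ring to the channel proteins, had 3071 and 3185 at 12 h and 24 h, against 3684 in the control, or -0.26 and -0.21. For NUP188, a relative of NUP205, the difference was -0.20 at 12 h and -0.07 at 24 h. NUP155 was at 0.03 and -0.18, and NUP35 at -0.08 and -0.12. The difference of NUP205 at 24 h, 1.30-fold, was the most that any of the 5 showed on its brightest probe set. A second, dimmer probe set of NUP205 was at -0.73 at 12 h and 0.09 at 24 h.

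Both membrane nucleoporins of the selection were lower at each time on their brightest probe sets. POM121C, a pore component outside the selection, was higher, at 0.16 and 0.82, on a probe set that is not transcript-specific. NUP210, the glycoprotein gp210 that spans the nuclear envelope, had a signal of 477.4 at 12 h and 422.7 at 24 h, against 670.1 in the control. Its differences were -0.49 and -0.66, the second of which is 1.59-fold. Of its 5 measured probe sets, all 5 were lower at 12 h, from -0.65 to -0.15, and 4 were lower at 24 h, with the dimmest at 0.03. The brightest probe set specific to the transcript gave only -0.15 and -0.21. NDC1, a pore membrane protein needed for assembly, had 1923 at 12 h and 1904 at 24 h, against 2486 in the control, or -0.37 and -0.38. Its dimmer probe set stayed near the control, at 0.05 and -0.03.

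The nuclear basket gave a mixed picture. NUP50, a cofactor of importin-mediated transport, had a signal of 1632 at 12 h and 1558 at 24 h, against 2128 in the control, or -0.38 and -0.45. Of 4 measured probe sets, 3 were lower at each time and the fourth, of lower signal, was at 0.38 and 0.23. NUP153, which docks import complexes at the basket, had 5027 and 5094 at 12 h and 24 h, against 5839 in the control, or -0.22 and -0.20, while its 2 dim probe sets were higher by 0.13 and 0.76 at 12 h and by 0.30 and 0.24 at 24 h. TPR, the coiled-coil protein of the basket filaments, had 2800 at 12 h and 2491 at 24 h, against 2588 in the control. That is 0.11 and -0.06 for the brightest probe set. A second TPR probe set had 1119 at 12 h and 2613 at 24 h, against 1329 in the control, which is -0.25 and 0.98. The TPR probe sets thus ranged from -0.45 to 0.98 at 24 h, and no direction can be given for this gene.

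In the central channel NUP62 alone of 4 genes was lower on its brightest probe set. NUP62, whose phenylalanine-glycine repeats line the channel, had a signal of 4049 at 12 h and 4121 at 24 h, against 5135 in the control, or -0.34 and -0.32. Its 2 dimmer probe sets were at or slightly above the control, with differences from 0.02 to 0.14. NUP58 and NUP54, its partners in the channel complex, were at 0.28 and 0.09 at 12 h and at 0.13 and 0.03 at 24 h. For NUP58 the 4 probe sets spanned -0.13 to 1.26 at 24 h. NUP98, which carries repeats on both faces and binds RAE1, had 1320 at 12 h and 1544 at 24 h, against 1306 in the control, a difference of 0.02 and 0.24.

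At the cytoplasmic face the signals lay near the control at 12 h, with 5 of 6 genes slightly higher and a median of 0.05. At 24 h 3 were lower and 3 were higher, with a median of -0.01. RANBP2, the giant filament protein that binds Ran and acts as a SUMO ligase, had 3955 at 12 h and 4319 at 24 h, against 3874 in the control. Its difference was 0.03 and 0.16. All 4 probe sets were higher at 24 h, by 0.11 to 0.16 in all but 1, which stood at 0.73. NUP214, a filament protein fused to other genes in some leukaemias, had 611.5 and 669.7 at 12 h and 24 h, against 553.1 in the control, or 0.14 and 0.28. Its second probe set was at -0.14 and 0.04, and its dimmest was at the floor on both treated arrays, so at 12 h 2 of its 3 probe sets were lower. NUP88, its partner, was at -0.03 and -0.08, and RAE1, an mRNA export and spindle factor, at 0.04 and 0.05. NUP42 was at 0.05 and -0.13. AAAS, the protein aladin, had a signal of 116.8 at 12 h and 75.3 at 24 h, against 97.6 in the control, or 0.26 and -0.37 on 1 probe set near the floor.

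**Figure D3:**
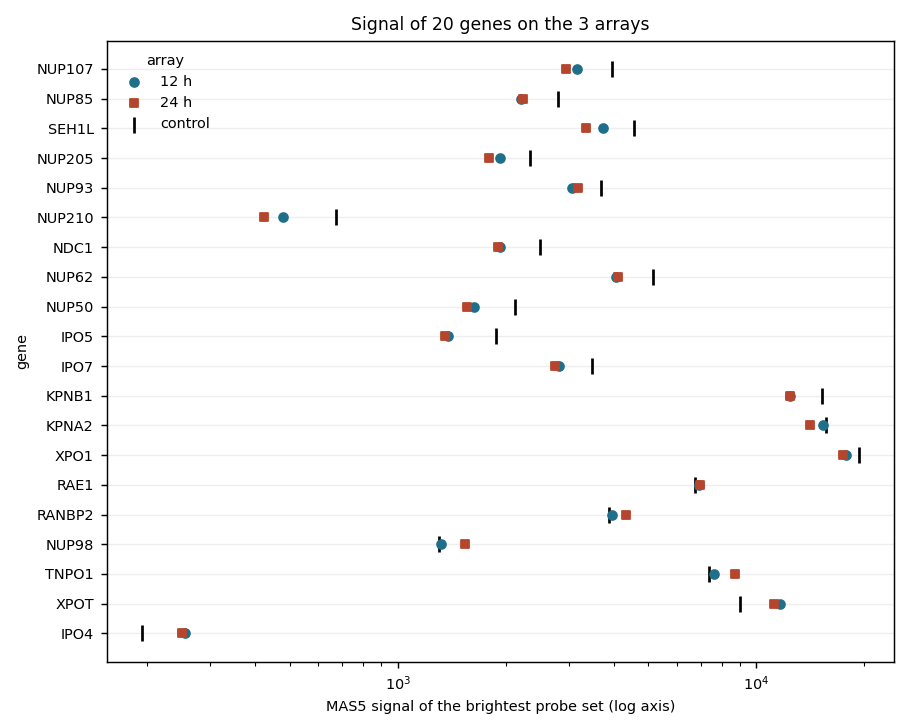
MAS5 signal (horizontal axis, log scale) of the brightest probe set of 20 genes (rows) on the array at 12 h (circles), at 24 h (squares) and of the control (bars), 1 array each. NUP107 to KPNB1 lie left of their control, KPNA2 and XPO1 lie close to it, and XPOT and IPO4 lie right of it.

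Importin alpha proteins recognise the classical nuclear localisation signal and are carried by importin beta, KPNB1. The 6 measured alpha genes lay within 0.21 of the control on the log2 scale, and their median was -0.07 at 12 h and -0.13 at 24 h. KPNA2, the alpha form tied to proliferating cells, had a signal of 15314 at 12 h and 14102 at 24 h, against 15651 in the control, or -0.03 and -0.15, and its second probe set gave -0.01 and -0.29. KPNA3 was at -0.21 and -0.11, KPNA4 at -0.14 and -0.16, KPNA5 at -0.02 and -0.20, KPNA6 at -0.10 and -0.07, and KPNA1 at 0.06 and 0.02. Probe sets within KPNA1 ranged from -0.39 to 0.80 at 24 h, those of KPNA4 from -0.34 to 0.30 and those of KPNA6 from -0.26 to 0.53. The spread within these genes was wider than the differences of their brightest probe sets.

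The importin beta family divided. KPNB1, the main import receptor, had a signal of 12449 at 12 h and 12405 at 24 h, against 15287 in the control, or -0.30 at each time. All 6 of its probe sets were lower at each time, from -0.56 to -0.11 at 12 h and from -0.83 to -0.05 at 24 h. The brightest probe set of KPNB1 specific to the transcript gave -0.50 at 12 h and -0.62 at 24 h, which is past 1.5-fold at 24 h. IPO5, an importer of ribosomal proteins and histones, had 1376 at 12 h and 1352 at 24 h, against 1883 in the control, or -0.45 and -0.48. Each of its 5 probe sets was lower at each time, from -0.45 to -0.05 at 12 h and from -0.63 to -0.05 at 24 h. The brightest probe set specific to the transcript gave only -0.05 at each time. IPO7, an importer of ribosomal proteins and of linker histone together with KPNB1, had 2824 and 2746 at 12 h and 24 h, against 3487 in the control, or -0.30 and -0.34. All 4 of its probe sets were lower at each time, from -0.66 to -0.21 at 24 h. TNPO2, a paralogue of transportin, had 3310 at 12 h and 3453 at 24 h, against 4090 in the control, or -0.31 and -0.24, with all 3 of its probe sets lower. In these 4 receptors no measured probe set lay above the control at either time.

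The other importins went both ways. IPO4, an importer of histones, had a signal of 254.6 at 12 h and 249.7 at 24 h, against 193.8 in the control, or 0.39 and 0.37, on its 1 probe set. TNPO1, transportin, which imports RNA-binding proteins of the hnRNP family, had 7640 at 12 h and 8719 at 24 h, against 7377 in the control, or 0.05 and 0.24. Of its 10 measured probe sets 9 were higher at 24 h, and the exception was at -0.23. TNPO3, an importer of splicing factors rich in serine and arginine, was at 0.08 and -0.03, IPO13 at 0.14 and 0.12, and IPO8 at 0.01 and -0.18. IPO9, an importer of core histones, was at 0.19 and -0.11, but its 3 dimmer probe sets were lower at each time, and the 2 lowest of them stood between -1.02 and -0.76. Over the 10 measured members of the family, 4 were lower at 12 h, with a median of 0.03, and 7 were lower at 24 h, with a median of -0.15.

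Among exportins, XPOT stood apart. XPOT, which exports transfer RNA, had a signal of 11675 at 12 h and 11231 at 24 h, against 9032 in the control, or 0.37 and 0.31, which is 1.29-fold and 1.24-fold. Its second probe set had 2039 and 2077 at 12 h and 24 h, against 1577 in the control, so both probe sets were higher by 0.31 to 0.40. XPO1, the exporter of proteins with leucine-rich signals and the target of leptomycin, had 17808 at 12 h and 17500 at 24 h, against 19301 in the control, or -0.12 and -0.14. Its second probe set was at -0.04 at 12 h and 0.16 at 24 h, so at 24 h the pair of probe sets pointed in opposite directions. XPO5, the exporter of microRNA precursors, was at -0.11 and -0.22 on its brightest probe set, with the others between -0.03 and 0.16. XPO7 was at -0.12 and -0.04, XPO6, the actin exporter, at 0.02 and 0.06, and XPO4 at -0.00 and -0.01. With XPOT aside, the brightest probe sets of the exportins thus lay within 0.22 of the control on the log2 scale.

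**Figure D4:**
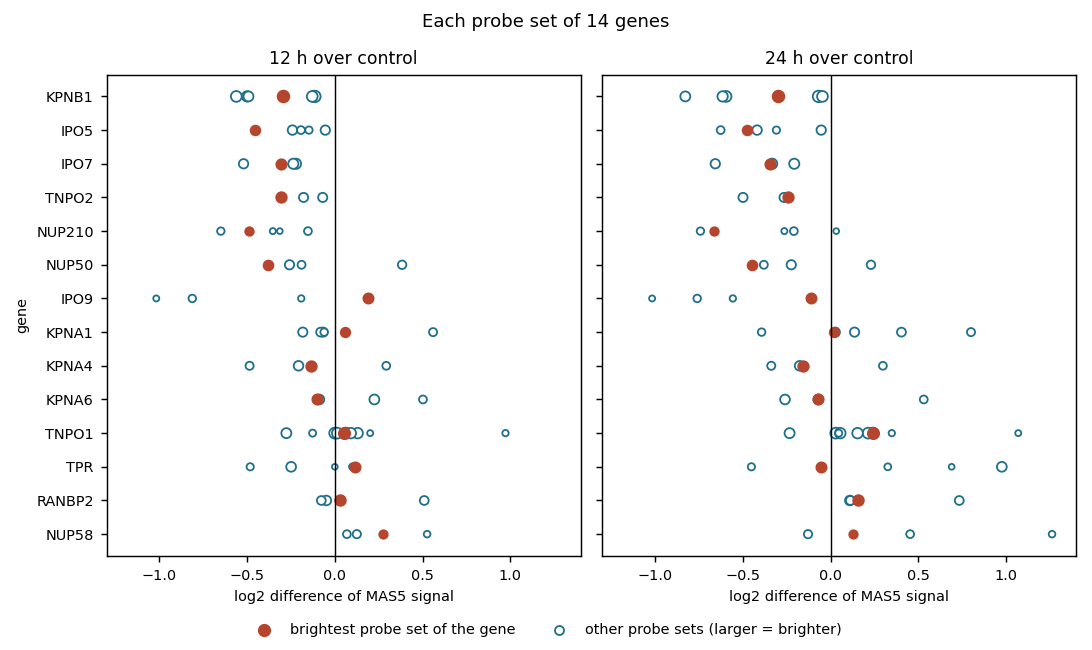
Log2 difference from the control (horizontal axis) of every measured probe set of 14 genes (rows) at 12 h (left) and 24 h (right). The filled circle is the brightest probe set, and circle area grows with signal. All circles of KPNB1, IPO5, IPO7 and TNPO2 lie left of 0 at both times, while those of KPNA1, TPR and NUP58 lie on both sides of it at 24 h.

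Probe sets of 1 gene could be set side by side for 38 genes with at least 2 measured probe sets. At 24 h no probe set was higher in 14 of them (36.8%), against 24.1% of 6324 such genes on the array, and none was lower in 4 (10.5%), against 24.4%. The 4 genes without a lower probe set were RAE1, RANBP2, XPO6 and XPOT. At 12 h no probe set was higher in 13 genes (34.2%), against 1581 of the 6324, and none was lower in 4 (10.5%), namely IPO8, NUP58, NUP98 and XPOT, against 25.1%. In the other genes the probe sets went both ways, in 21 of the 38 at 12 h and in 20 at 24 h, so there the direction depends on the probe set read. Counted over the 137 measured probe sets, 83 were lower at 24 h (60.6%), against 49.0% of 23715, and 84 were lower at 12 h (61.3%), also against 49.0%.

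Between the treated arrays the members differed little. Set against 12 h, 34 of 52 genes were lower at 24 h (65.4%), against 51.7% of all measured genes, with a median of -0.03. Over probe sets 67 of 137 were lower (48.9%), against 49.9%, and 66 were higher, so the larger share of lower genes was not seen there. Past 1.5-fold were 7 probe sets (5.11%, against 5.78%), and past 2-fold 1 of TPR (0.73%, against 0.822%). Of the genes only AAAS passed 1.5-fold on its brightest probe set (1.92% of members, against 3.38% of all genes), at -0.63 and close to the floor. NUP98 was at 0.23, TNPO1 at 0.19, IPO9 at -0.30, NUP155 at -0.21 and SEH1L at -0.16. At 1.25-fold or more, 2 members were lower (AAAS and NUP50-DT, against 8.79% of all genes) and 0 were higher (against 6.76%), and 0.324% of all genes but no member passed 2-fold. NUP50-DT, the divergent noncoding transcript at NUP50, had a signal of 170.2 at 24 h and 234.7 at 12 h, against 237.4 in the control. Of the remaining other symbols, IPO5P1, a pseudogene of IPO5, was at -0.42 at both times, and NUP62CL, a paralogue of NUP62, was at 0.46 and 0.30. IPO5P1 and IPO5 are alike in sequence, so their signals may overlap.

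Genes of the same pathway outside the selection were read from lists. Beside the counts below, 49.9% of all measured genes were lower at 24 h and 48.4% at 12 h. At 24 h 9.01% of them passed 1.5-fold either way. Past 1.25-fold at 24 h, 16.1% were lower and 13.8% were higher. Of 13 measured Ran cycle and transport factors, 8 were lower at 24 h with a median of -0.13. RAN itself was at 0.00 and 0.03, RANBP1, a Ran cofactor, at -0.19 and -0.43, and CSE1L, the exporter that returns importin alpha to the cytoplasm, at -0.13 and -0.22. RANGAP1, which activates the GTPase of Ran, passed 1.5-fold at 24 h alone, at -0.85. Of 4 other measured pore components, 2 were lower at 24 h. SEC13 was at 0.30 and 0.34, AHCTF1, which starts pore assembly on chromatin, at -0.24 and -0.14, and GLE1 at 0.15 and -0.02. POM121C was at 0.16 and 0.82, so it passed 1.5-fold higher at 24 h, on a probe set that is not transcript-specific. POM121, read from a different probe set, stayed at the floor, with signals of 60.3 at 12 h and 29.1 at 24 h, against 58.7 in the control. Whether the POM121C signal includes POM121 was not tested. Factors of mRNA export lay near the control, with 5 of 14 lower and a median of 0.05 at 24 h, and none passed 1.25-fold. Nuclear lamina and envelope genes were lower in 12 of 15 cases at 24 h, with a median of -0.14, and LMNB1, TMPO and SUN2 passed 1.5-fold at -0.73, -0.59 and -0.63. Proliferation genes moved further, with 24 of 24 lower at 24 h and a median of -0.50, and 21 of 24 lower at 12 h with a median of -0.27. Their part in the lower signal of the pore genes was not tested, and fewer dividing cells or less RNA per cell cannot be told apart in RNA of whole cultures.

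Values of the arrays as a whole bear on these small differences. The trimmed mean signal was 500.06 on every array, and medians were 60.6 at 12 h and 61.8 at 24 h, against 61.7 in the control. For ACTB, the 3′ probe set over the 5′ probe set, a gauge of RNA degradation, gave 5.38 at 12 h and 6.55 at 24 h, against 4.95 in the control, and for GAPDH it gave 1.25 and 1.24, against 1.21. Their part in the differences was not tested. All 8 epithelial markers were measured. Of 4 lung lineage markers with a probe set annotated to 1 gene, 3 were measured, SFTPB, SFTPC and NAPSA. NAPSA passed the floor at 24 h alone, with a signal of 74.9, and NKX2-1 stayed at the floor. SFTPC had a signal of 161.0 at 12 h and 131.6 at 24 h, against 84.3 in the control. Of 6 leukocyte markers 2 were measured, ITGAM and CSF1R, with PTPRC, CD3D, CD14 and LYZ at the floor. ITGAM was above the floor in the control alone, with a signal of 73.7. Of 6 fibroblast markers 2 were measured, COL1A1 and COL3A1, both lower at 12 h and 24 h than in the control. COL1A2, DCN, LUM and PDGFRB were at the floor. Of 5 endothelial markers 2 were measured, PECAM1 and TEK, with CDH5, VWF and KDR at the floor. HBB, the 1 erythroid marker with a probe set annotated to 1 gene, was above the floor at 12 h alone, with a signal of 90.6. Listed markers without such a probe set were not read.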

How the data were processed

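Total RNA of NCI-H1650 cells was labelled with biotin and hybridised to 3 Affymetrix arrays, 1 per group. The deposited values are linear signal intensity that the authors computed with MAS5 (per the submitters' processing notes). Which version and settings they chose is not given in the sources used here. Scaling was kept as deposited, since the mean after trimming 2% at each end was equal on all arrays. The platform annotation gave 1 gene for 41097 probe sets, several for 1801 and none for 11777, and all 57 member genes matched a RefSeq record by Entrez identifier, with 0 symbols changed.

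A gene took its probe set of highest mean signal. The floor was the 50th percentile over the 3 arrays, log2 differences were formed between pairs of arrays, and counts were made at 1.5-fold and 2-fold. Counts at 1.25-fold and over genes of mean signal 1000 or more were added after the values were seen. Without replicates no test was made. Alternatives covered scaling (median centring, quantile and cyclic loess), floor and choice of probe set, in 8 settings. The members and lists were chosen with earlier results of these data known. Genes are named where they differed by 1.5-fold or lay nearest to it, as up to 3 per role by mean size of difference, and for KPNA2, KPNB1, XPO1, NUP98, NUP153, TPR, RANBP2, NUP62, NUP107, IPO7, TNPO1 and NUP210. The others, given to complete their role, were chosen after their values were seen. Python 3.11.15, pandas 2.3.3, R 4.3.3 and limma 3.58.1 were used, and the gene table was tested on simulated data.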

Additional observations from a re-analysis of the deposited data

Results flagged for a closer look

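For 4 genes the 12 h and 24 h differences from the control had opposite signs with each at least 0.05 in size, and these contrasts were not tested. For 24 h over 12 h, AAAS was at -0.63 (0.26 at 12 h, -0.37 at 24 h), IPO9 at -0.30, NUP42 at -0.19 and TPR at -0.17. Of the 6 probe sets other than the brightest that differed by over 1.5-fold between the times, 2 also had opposite signs against the control, and this too was not tested. A probe set of TPR was 1.22 higher on the log2 scale at 24 h than at 12 h (-0.25 at 12 h, 0.98 at 24 h), and a dim one of NUP205 was 0.81 higher (-0.73 at 12 h, 0.09 at 24 h). Among probe sets annotated to several genes and so left out of every gene value, 1 that RANBP2 shares with the RGPD genes had a signal of 135.6 at 12 h and 235.8 at 24 h, against 158.6 in the control, above the control at 24 h by 0.57 on the log2 scale. The 4 probe sets annotated to RANBP2 alone lay between 0.11 and 0.73 at 24 h. The 0.73 came from 1 of them, which is not transcript-specific, and the others lay between 0.11 and 0.16. The transcript-specific one was at 0.11.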

How the results depend on the processing

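Results were recomputed under 8 settings, except that AAAS had no value with the floor at the 65th percentile and NDC1, NUP62CL, NUP98, SEH1L and XPO5 had none on transcript-specific probe sets. The members' median stayed below 0 in all of them, from -0.15 to -0.08 at 24 h, from -0.08 to -0.01 at 12 h and from -0.06 to -0.02 for 24 h over 12 h. Genes lower by any amount numbered 30 to 43 at 24 h, the lowest with 41 genes measured on transcript-specific probe sets, 27 to 34 at 12 h and 25 to 41 for 24 h over 12 h. The count of members past 1.5-fold was 1 at 12 h, 2 at 24 h and 3 for 24 h over 12 h with the floor at the 25th percentile, and 1, 5 and 6 with no floor, where dim genes enter. For 24 h over 12 h it was 0 with the floor at the 65th percentile. With the median over probe sets the nuclear basket turned to 0.24 at 24 h and stood at 0.00 at 12 h, the membrane group at -0.23 and -0.26, and the importin beta family at -0.086 at 12 h. With transcript-specific probe sets the basket was at -0.45 at 24 h and -0.38 at 12 h, the membrane group, then NUP210 alone, at -0.21 and -0.15, and the central channel at 0.21 at 12 h. With the median over probe sets NUP62 turned to 0.039 at 12 h and 0.024 at 24 h. On its transcript-specific probe set NUP62 was at 0.14 at both times. Other genes also changed sign between settings. Among them, NUP153 was at 0.13 at 12 h and 0.24 at 24 h with the median over probe sets, and TPR ran from -0.45 to 0.33 at 24 h. Why these values moved was not tested. Under the 3 other scalings the median of all measured genes lay between -0.04 and 0.03. No paired analysis was possible because each group had 1 array, and leaving out an array removes its group.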
